A study of Homo sapiens with 3 samples.

Results

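AP-1 and EGR transcription factors were followed through the differentiation of THP-1 cells by phorbol myristate acetate (PMA). The genes were chosen by name: FOS, FOSB, FOSL1 and FOSL2, JUN, JUNB and JUND, EGR1 and EGR2, and MAFF. Probe sets whose platform gene symbol was exactly one of these names were taken, which gave 22 probe sets for 9 of the 10 genes, among 19775 genes with a probe set of their own. No probe set was listed under EGR2, and that gene was not analysed here.

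The established line THP-1 was derived from a human monocytic leukemia, and PMA is a phorbol ester that activates protein kinase C and turns the cells into adherent macrophage-like cells. Total RNA from 3 cultures was measured on 1 array each: undifferentiated cells, PMA 3 days and PMA 8 days. Per the labels' protocols both PMA cultures were seeded in 200 nM PMA; the PMA 3 days culture kept it for 24 h and then had 3 days without it, and the PMA 8 days culture kept it for 72 h and then had 5 days without it. The cells were grown in medium with 10% serum. RNA was isolated 16 h after the medium had been exchanged for one with 2% serum, a step that the protocol gives without naming a culture. Time in PMA, time since PMA and time in culture differed together between the PMA cultures and cannot be told apart, and no array sampled the first hours of PMA.

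AP-1 is a dimer of a FOS-type and a JUN-type protein, joined by a leucine zipper, that binds the phorbol ester response element of its target genes. Several of its genes, and the zinc finger gene EGR1, are immediate early genes: protein kinase C and the MAP kinases switch them on within minutes through factors already present in the cell, and the transcripts are short-lived. MAFF is a small MAF protein that shares the zipper but has no activation domain of its own, and acts in dimers with itself or with partners such as NRF2. In monocytes these factors are known as part of the switch from dividing precursor to macrophage.

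The values are MAS5 signals, a linear brightness per probe set, as deposited. Signals below a floor of 149.8, the median of all non-control values, were raised to the floor before a log2 ratio was taken, and a gene is called higher or lower where 2 arrays differed 2-fold or more. With 1 array per condition there was no replicate error, no test and no p-value. The only spread that could be measured was that of log2 ratios between probe sets of one gene, over 5180 genes: its SD was 0.43 for PMA 3 days and 0.44 for PMA 8 days, each over undifferentiated cells, and 0.27 between the PMA arrays. It does not cover differences between cultures. The bulk signal cannot separate fewer cells with a transcript from less of it per cell.

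Each array had a trimmed mean signal near 1000, with 48.5% to 51.5% of probe sets above the floor. The ratio of 3' to 5' signal was 1.36 to 1.49 for actin and 1.10 to 1.16 for GAPDH. Of 8 monocyte and macrophage markers with a probe set, 5 were above the floor in undifferentiated cells, 7 at PMA 3 days and 7 at PMA 8 days, with summed signals of 70774, 123496 and 86877 in that order. Most of the undifferentiated sum was LYZ, which fell, with signals of 62439, 36591 and 23242.5 on the same arrays. Of 7 markers measured over undifferentiated cells, 5 were higher and 0 lower at PMA 3 days, and 5 higher and 1 lower at PMA 8 days. Among all genes 10.4% were higher and 10.7% lower at PMA 3 days, and 9.83% and 8.49% at PMA 8 days. The median log2 ratios of these markers were 2.48 and 2.21, against -0.12 and -0.07 for all genes. SPI1 was below the floor in undifferentiated cells (25.0) and FCGR1A on every array. Of 4 lymphocyte markers only CD79A was above the floor on any array, and the 4 summed to 498 to 816. Of 7 markers of red cells, epithelium, endothelium and fibroblasts, 4 to 6 were above the floor, EPCAM on no array, and their summed signals of 21530 to 24017 were mostly PECAM1, which monocytes express too. The fibroblast marker COL1A1 was the 1 of these 7 past 2-fold over undifferentiated cells: its brightest probe set read 464 in undifferentiated cells, 2337 at PMA 3 days and 1828 at PMA 8 days, and its probe sets did not all go one way. Their part in the results below was not tested.

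Before the values, the upstream sequences of 4 of the genes are shown, because these 4 span the range of responses. Among the chosen genes above the floor on all 3 arrays, MAFF had the largest ratios over undifferentiated cells. FOS and JUN are the founding AP-1 subunits. EGR1 was the only one of the chosen genes with a lower brightest signal on both PMA arrays. The 250 bases before the RefSeq start in GRCh38.p14 are given 5′ to 3′ on the gene's strand: chr22:38201744-38201993 (plus) for MAFF, the first of its 2 windows, chr14:75278578-75278827 (plus) for FOS, chr1:58784048-58784297 (minus) for JUN and chr5:138465229-138465478 (plus) for EGR1. Capitals mark matches, on either strand, to TGACGTCA (the cyclic AMP response element), its core TGACGT, TGACATCA (a variant at the JUN promoter that JUN and ATF2 are known to bind), TATAAA and the CArG box, the site of the serum response factor SRF.
MAFF: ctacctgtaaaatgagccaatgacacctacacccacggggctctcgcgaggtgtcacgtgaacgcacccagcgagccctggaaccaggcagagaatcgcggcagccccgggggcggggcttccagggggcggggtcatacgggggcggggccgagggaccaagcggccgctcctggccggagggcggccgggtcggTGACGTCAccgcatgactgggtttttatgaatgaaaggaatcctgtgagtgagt
FOS: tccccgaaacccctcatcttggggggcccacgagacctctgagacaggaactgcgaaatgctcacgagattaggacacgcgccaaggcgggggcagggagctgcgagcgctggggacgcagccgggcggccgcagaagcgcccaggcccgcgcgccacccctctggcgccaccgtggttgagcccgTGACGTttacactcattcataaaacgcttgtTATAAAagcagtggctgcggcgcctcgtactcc
JUN: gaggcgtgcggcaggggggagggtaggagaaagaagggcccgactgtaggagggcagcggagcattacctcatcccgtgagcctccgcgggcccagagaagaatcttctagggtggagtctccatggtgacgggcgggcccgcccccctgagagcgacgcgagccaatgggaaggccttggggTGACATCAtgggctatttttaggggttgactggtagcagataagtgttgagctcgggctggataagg
EGR1: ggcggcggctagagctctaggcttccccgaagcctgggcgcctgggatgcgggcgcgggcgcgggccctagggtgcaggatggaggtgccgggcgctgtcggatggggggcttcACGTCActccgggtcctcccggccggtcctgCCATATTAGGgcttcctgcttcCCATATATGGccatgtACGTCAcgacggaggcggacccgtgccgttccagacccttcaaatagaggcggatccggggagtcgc
MAFF held TGACGTCA from 54 to 47 bases before its start, and FOS held TGACGT from 64 to 59 and TATAAA from 33 to 28 bases before its start. JUN held TGACATCA from 67 to 60 bases before the start. EGR1 held a pair of CArG boxes, from 105 to 96 and from 83 to 74 bases before the start, and a pair of TGACGT matches, each on the minus strand.

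RefSeq windows were found for 8 of the 9 genes, 9 windows in all since MAFF has 2. TGACGT stood in 6 of the 9 windows (FOS, FOSB, FOSL2, JUND, EGR1 and 1 of MAFF) and in 7.1% of all 35116 windows of that length. TGACGTCA, which contains it, stood in 2 windows (MAFF and JUND), against 1.65% of all. TATAAA stood in 3 (FOS, FOSB, JUNB; 10.7% of all), TGACATCA in 1 (2.37%) and the CArG box in 1 (1.16%). The canonical AP-1 element TGAGTCA (4.2% of all) and the EGR element GCGTGGGCG (0.72%) stood in 0 of the 9. Only the 250 bases before each start were searched, so a gene without a match here may hold the element elsewhere. These are matches of letters in a window and not shown to be sites.

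Among the FOS-type subunits, which bind DNA only with a JUN-type partner, FOS was higher at PMA 3 days. Its only probe set read 1506 in undifferentiated cells, 3240.0 at PMA 3 days and 2236 at PMA 8 days. The undifferentiated array was lowest and the PMA 3 days array highest. FOS was 2.15-fold higher in PMA 3 days than in undifferentiated cells, and PMA 8 days had log2 ratios of 0.57 over undifferentiated cells and -0.54 over PMA 3 days, neither past 2-fold. The array's probe sets for poly-A control transcripts gave a median log2 level of 9.39 in undifferentiated cells, 9.70 at PMA 3 days and 9.50 at PMA 8 days. With the arrays scaled to these probe sets, FOS had a log2 ratio of 0.80 at PMA 3 days, short of 2-fold.

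FOSL1, which encodes FRA-1 and is known as an AP-1 target itself, read 29.5 in undifferentiated cells, 28.0 at PMA 3 days and 299 at PMA 8 days. It was below the floor on the first pair of arrays and above it only at PMA 8 days, so it entered the comparisons solely through the array where it was high. The ratio at PMA 8 days is a lower bound of 1.995-fold over either other culture, just short of the threshold, because the other arrays stood at the floor. With a floor at the 40th percentile the log2 bound was 1.66, with one at the 60th percentile 0.19, and with no floor and a pseudocount of 50 the log2 ratio was 2.13 over undifferentiated and 2.16 over PMA 3 days. Other scalings put the log2 bound over undifferentiated cells at 1.02 to 1.07, so whether FOSL1 counts as higher at PMA 8 days depends on the floor and the scaling.

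FOSL2, which encodes FRA-2, was read by 5 probe sets, of which 4 were above the floor. The brightest gave 5668 in undifferentiated cells, 8244 at PMA 3 days and 8332 at PMA 8 days. The PMA arrays were close together and above the undifferentiated one, with log2 ratios of 0.54 and 0.56 over undifferentiated cells and 0.02 between the PMA arrays. All 4 probe sets were above 0 over undifferentiated cells, from 0.33 to 1.14 at PMA 3 days and from 0.20 to 1.10 at PMA 8 days. The dimmest of the 4 was past 2-fold at both times, with signals of 156, 343 and 334 in undifferentiated, PMA 3 days and PMA 8 days cells. The fifth stayed below the floor at 33.5 to 112. FOSB, the serum-inducible relative, was below the floor on every array at 10.2, 13.8 and 41.4, so no ratio was taken.

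**Figure D1:**
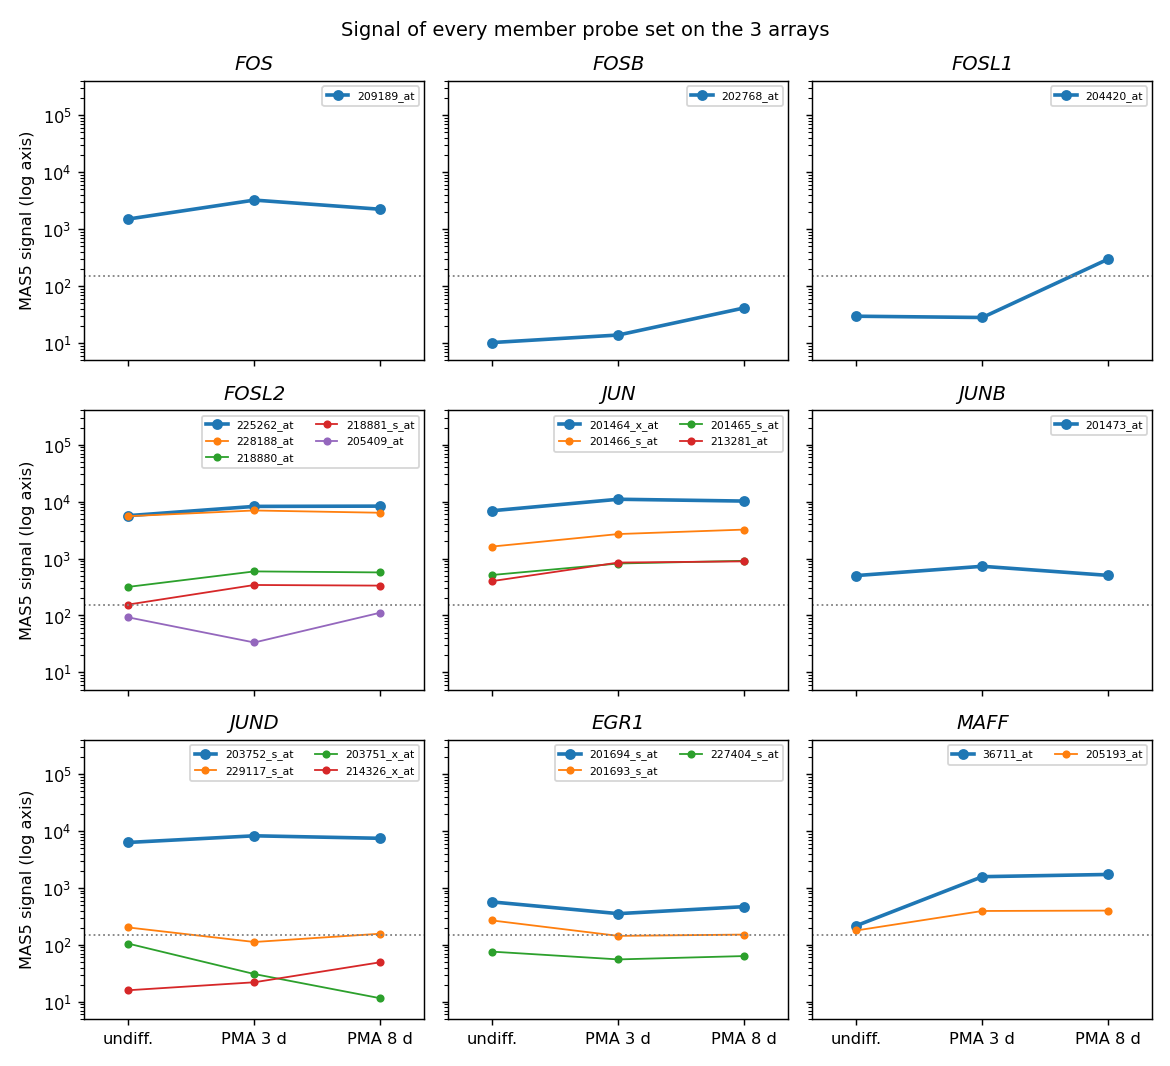
MAS5 signal (log axis) of each of the 22 probe sets in undifferentiated, PMA 3 days and PMA 8 days cells, 1 array each, in 1 panel per gene; the thick line is the brightest probe set and the dotted line the floor of 149.8. The brightest MAFF probe set reads 1577 and 1725 on the PMA arrays, against 217 in undifferentiated cells, FOSL1 is above the floor at 8 days only, and FOSB never.

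JUN, the main partner of FOS, was read by 4 probe sets, all above the floor on all 3 arrays. The brightest gave 6921 in undifferentiated cells, 11005 at PMA 3 days and 10220.4 at PMA 8 days. The others gave 1626, 2693 and 3227, then 515, 818 and 913, and last 402, 850.2 and 892, in the same order. In all 4 the undifferentiated array was the lowest. Over undifferentiated cells their log2 ratios ran from 0.67 to 1.08 at PMA 3 days and from 0.56 to 1.15 at PMA 8 days, and only the dimmest passed 2-fold. Between the PMA arrays the probe sets did not go one way, with -0.11 for the brightest and 0.07 to 0.26 for the other 3.

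JUNB, a JUN relative known as a weaker activator, read 502 in undifferentiated cells, 731 at PMA 3 days and 505.5 at PMA 8 days. The PMA 3 days array stood above the other arrays, which were nearly equal. Over undifferentiated cells the log2 ratios were 0.54 at PMA 3 days and 0.01 at PMA 8 days, and PMA 8 days over PMA 3 days gave -0.53. As with FOS, its level was highest at PMA 3 days.

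JUND, which many cell types make without a stimulus, read 6297 in undifferentiated cells, 8237 at PMA 3 days and 7446 at PMA 8 days on its brightest probe set. Its log2 ratios of 0.39 and 0.24 over undifferentiated cells were within the SD between probe sets. The next probe set went the other way, from signals near the floor: 202 in undifferentiated cells, 112 at PMA 3 days and 157 at PMA 8 days, with ratios of -0.43 (a bound) and -0.37. A further 2 probe sets of JUND were below the floor on every array.

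MAFF had the largest ratio over undifferentiated cells among the 7 genes above the floor on all 3 arrays, at both times; FOSL1, known at PMA 8 days only by a bound, cannot be ranked with it. Its brightest probe set read 217 in undifferentiated cells, 1577 at PMA 3 days and 1725 at PMA 8 days, and the other read 179, 394 and 399.8. In both the PMA arrays lay close together and well above the undifferentiated array. The brightest was 7.25-fold higher in PMA 3 days and 7.93-fold higher in PMA 8 days than in undifferentiated cells, and the other 2.20-fold and 2.23-fold. Both were past 2-fold, but the sizes disagreed, and undifferentiated signals were not far above the floor. With the floor at the 60th percentile the brightest probe set stayed past 2-fold, with log2 bounds of 2.59 at PMA 3 days and 2.72 at PMA 8 days. The other probe set was not run at that floor. PMA 8 days over PMA 3 days gave log2 ratios of 0.13 and 0.02.

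EGR1, a zinc finger factor that binds GC-rich elements, was the one measured gene whose brightest probe set had log2 ratios below 0 over undifferentiated cells. That probe set read 567 in undifferentiated cells, 353 at PMA 3 days and 469 at PMA 8 days, and the next read 268, 144 and 152. On both, the undifferentiated array was the highest. The log2 ratios over undifferentiated cells were -0.68 and -0.84 (the second a bound) at PMA 3 days and -0.27 and -0.82 at PMA 8 days, none of them past 2-fold. The sign was the same under all 3 other scalings, where the brightest probe set gave -0.99 to -0.52 at PMA 3 days and -0.38 to -0.14 at PMA 8 days. The third probe set was below the floor on every array at 55.5 to 75.9.

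**Figure D2:**
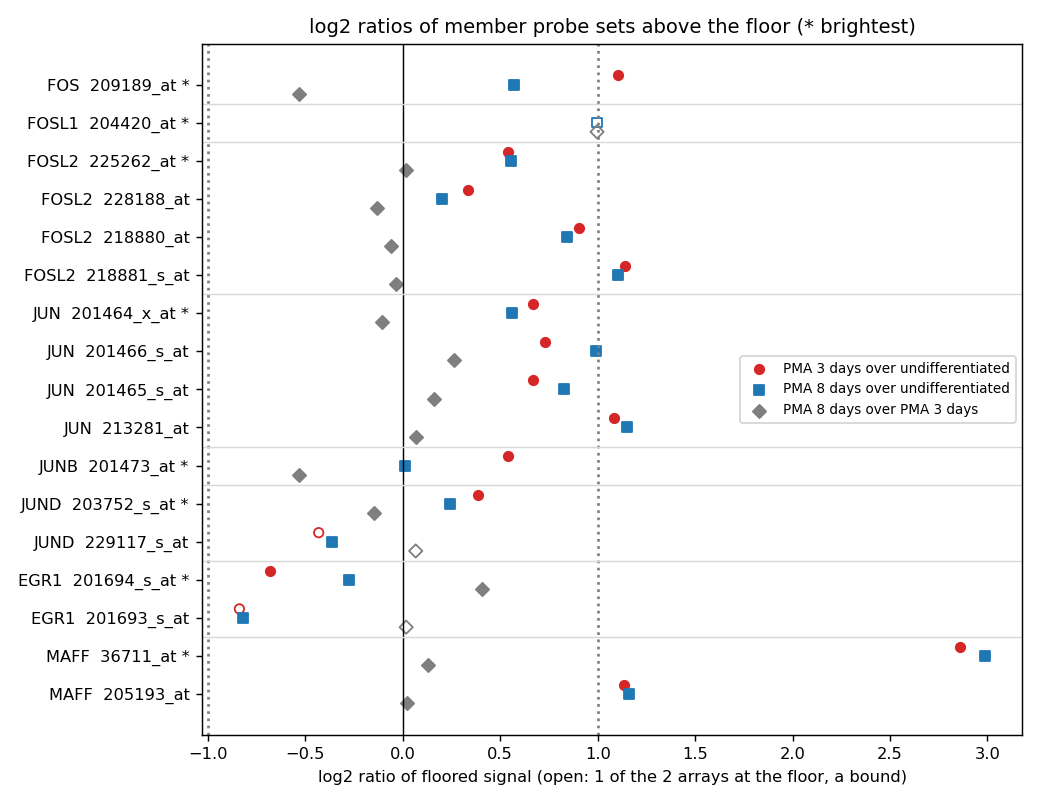
log2 ratios of floored signal for the 17 probe sets above the floor on at least 1 array, with PMA 3 days over undifferentiated as circles, PMA 8 days over undifferentiated as squares and PMA 8 days over PMA 3 days as diamonds; open symbols are bounds and dotted lines mark 2-fold. Both MAFF probe sets lie beyond 2-fold at both times, those of EGR1 lie left of 0 over undifferentiated cells, and no probe set passes 2-fold between the PMA arrays.

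Set together, 7 of the 9 genes could be compared at PMA 3 days, and 2 of them, FOS and MAFF, were higher than in undifferentiated cells while 0 were lower. Over 13306 genes measured in this comparison, 10.4% were higher and 10.7% lower (7.48% and 18.6% under poly-A control scaling). The median log2 ratio of the 7 was 0.54, against -0.12 for all genes, with 6 of 7 above 0 against 42.4% of all genes. Their signs held under each of the 3 other scalings, but not with every choice of probe set. With the median of each gene's probe sets 5 of 7 were above 0, against 40.7% of all genes. With the second brightest probe set it was 3 of 5, against 42.3%. By single probe sets, 5 of 16 were higher and 0 lower, where 9.73% and 10.5% of all probe sets with 1 gene were. These 5 came from FOS, FOSL2, JUN and MAFF.

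At PMA 8 days 8 genes could be compared and 1 of them, MAFF, was higher than in undifferentiated cells, with 0 lower. The share over all 13555 genes was 9.83% higher and 8.49% lower, so the count of 1 in 8 was near the background. FOSL1 entered only through its PMA 8 days signal. Over the 7 genes above the floor on all 3 arrays, a restriction added after seeing the data, the median was 0.56 with 6 of 7 above 0, against -0.09 and 44.1% for the 11128 genes so measured. With the median of each gene's probe sets 6 of 8 were above 0, against 43.8% of all genes. With the second brightest probe set it was 3 of 5, against 44.6%. By single probe sets, 4 of 17 were higher and 0 lower, where 9.2% and 8.8% of all probe sets with 1 gene were. JUNB, at 0.01, turned to -0.10 under poly-A control scaling. Both comparisons used the same undifferentiated array, so they are not independent.

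Between the PMA cultures none of the 8 genes passed 2-fold, where 1.37% of 13051 genes were higher and 0.958% lower at PMA 8 days. Likewise 0 of their 17 probe sets did, against 1.32% higher and 0.952% lower. FOS (-0.54) and JUNB (-0.53) had the lowest ratios, with 5.79% and 5.88% of genes below them. FOSL1 (0.997, a bound) and EGR1 (0.41) had the highest. FOSL2, JUN and JUND lay between -0.15 and 0.02 and changed sign with the scaling.

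**Figure D3:**
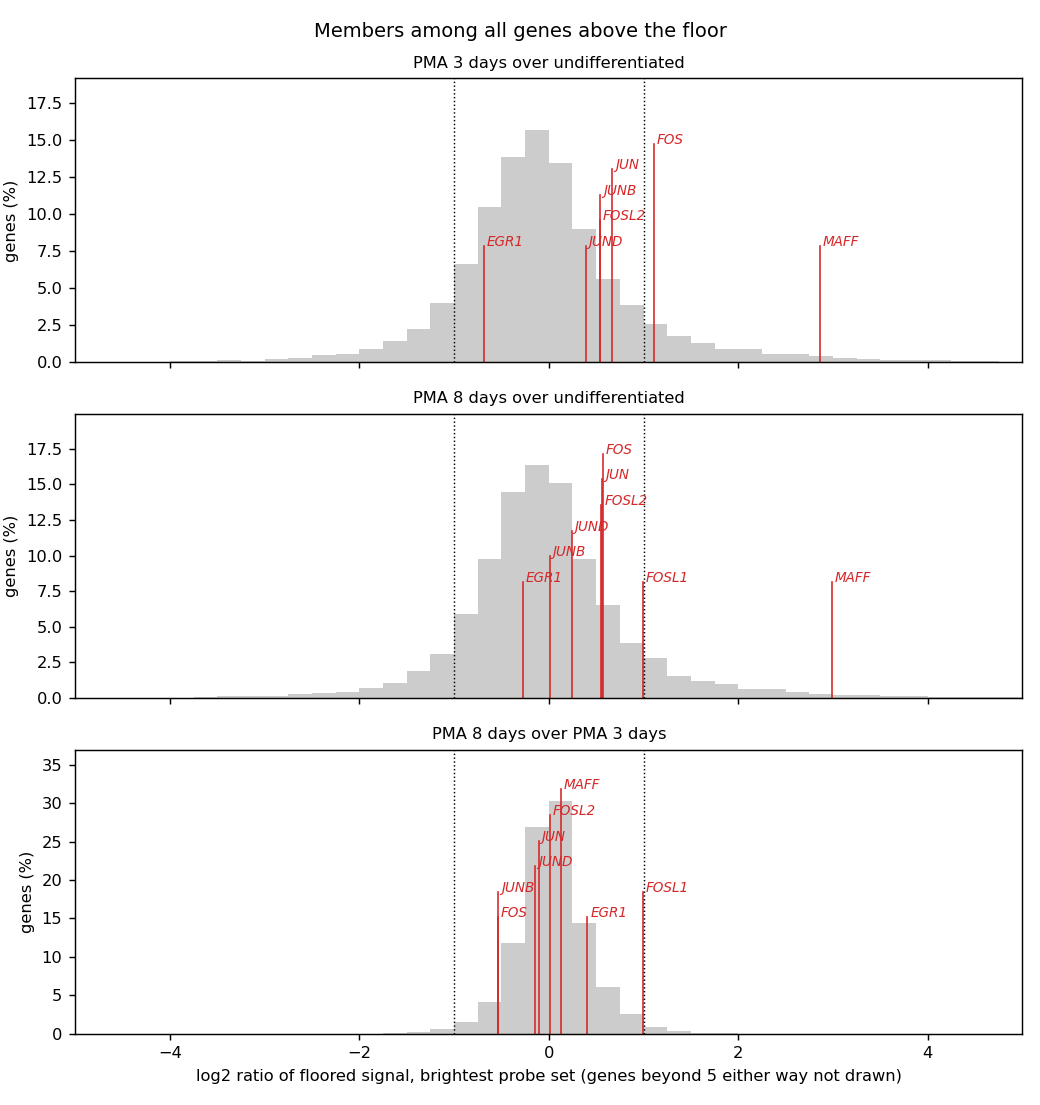
Share of all genes above the floor (grey bars, percent) by log2 ratio of the brightest probe set, 1 panel per comparison, with the members as red lines whose heights carry no value; dotted lines mark 2-fold. MAFF lies at 2.86 and 2.99 in the upper and middle panels, EGR1 left of 0 in both, and FOSL1 at 2-fold in the lower panel.

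By pattern, the genes nearest to FOS over the 3 arrays were RNF32 and ZBTB4, at distances of 0.03 and 0.03 in log2 units from its ratios at PMA 3 and 8 days. RNF32 read 435, 936 and 659, and ZBTB4 3013, 6451 and 4382 in undifferentiated, PMA 3 days and PMA 8 days cells. Nearest to MAFF were POPDC3 and APOE, at 0.05 and 0.07, where POPDC3 read 322, 2403 and 2514 and APOE 388, 2682 and 3116. The search ran over 11128 genes above the floor on all 3 arrays, and over 3 arrays likeness is a description only.

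Partners of these factors came from a list written by hand with earlier results of these data known. Among 15 measured dimer partners and related CNC genes, 4 were higher and 2 lower at PMA 3 days, and 3 higher and 2 lower at PMA 8 days, with medians of 0.17 (-0.14 under poly-A control scaling) and -0.07. Over all genes 10.4% were higher and 10.7% lower at PMA 3 days, and 9.83% and 8.49% at PMA 8 days. The medians of all genes were -0.12 at PMA 3 days (-0.39 under poly-A control scaling) and -0.07 at PMA 8 days. JDP2, a JUN partner that represses AP-1, read 911 in undifferentiated cells, 4195 at PMA 3 days and 2683 at PMA 8 days, 4.60-fold and 2.94-fold above undifferentiated cells. MAF, the large MAF relative known from macrophages, read 1738, 7089.5 and 5032 on the same arrays. ATF3, a stress-induced partner of JUN, was 5.31-fold higher at PMA 8 days, with signals of 276, 1297 and 1464, but at PMA 3 days its probe sets disagreed in direction.

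On the other side, BATF3, a partner of JUN in dendritic cells, read 842 in undifferentiated cells, 336 at PMA 3 days and 389 at PMA 8 days, 2.50-fold and 2.16-fold lower than in undifferentiated cells. NFE2, a blood-cell partner of small MAF proteins and named after its values were seen, read 710.5 in undifferentiated cells and was below the floor on both PMA arrays, at least 4.74-fold lower. NFE2L1, another partner of small MAF proteins, was 2.10-fold higher at PMA 3 days with signals of 3630.4, 7629.7 and 7144. NFE2L2, which encodes NRF2, read 10874.5, 20326 and 18859, short of 2-fold at both times.

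The share of all genes called higher was 10.4% at PMA 3 days and 9.83% at PMA 8 days. Of the EGR relatives and NAB corepressors, 3 of 4 were above the floor and 1 was higher at each time. This was NAB2, named after its values were seen, a corepressor that binds EGR1 and is known as its feedback target. It read 145 in undifferentiated cells, 360.2 at PMA 3 days and 477 at PMA 8 days, at least 2.40-fold and 3.18-fold above undifferentiated cells. NAB1 read 3009.6, 4966 and 4509 on the same arrays, short of 2-fold. EGR1 itself was below its undifferentiated signal on those arrays, as given above.

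Genes upstream are read against the shares of all genes, 10.4% higher and 10.7% lower at PMA 3 days. At PMA 8 days these shares were 9.83% and 8.49%. Of 12 kinases of the MAP kinase relay 0 were past 2-fold at either time. Their median log2 ratio at PMA 3 days was -0.02, against -0.12 for all genes. With poly-A control scaling these medians were -0.33 and -0.39. Under poly-A control scaling 1 kinase was lower at each time, and under quantile normalization 1 was lower at PMA 8 days. The sign of the kinases' median changed with the scaling. Of SRF and 6 cofactors, which act at CArG boxes like those of EGR1, 1 was lower and 0 higher at each time, which with so few genes is near the background: MRTFA read 2259.9 in undifferentiated cells, 702 at PMA 3 days and 976 at PMA 8 days. SRF itself read 1596, 1221 and 1296.

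Other immediate early genes went both ways. Of 23 measured, 9 were higher and 2 lower at PMA 3 days, where 10.4% and 10.7% of all genes were. At PMA 8 days 8 were higher and 1 lower, where 9.83% and 8.49% of all genes were. The medians were 0.59 and 0.36, against -0.12 and -0.07 for all genes. Under poly-A control scaling 6 of 22 were higher and 4 lower at PMA 3 days, where 7.48% and 18.6% of all genes were. ZFP36L1, which makes mRNAs decay, was 6.65-fold higher at PMA 3 days with signals of 2511, 16700.0 and 12098 in undifferentiated, PMA 3 days and PMA 8 days cells. The kinase gene SGK1 read 1959, 12914 and 9580.2, the nuclear receptor gene NR4A2 231, 1186 and 603, and the matrix protein gene CCN1 178, 559.9 and 1025. MYC, a growth gene of dividing cells, read 9225, 1767 and 2453, 5.22-fold lower at PMA 3 days than in undifferentiated cells.

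Genes that are widely described as AP-1 targets were higher in 12 of 16 cases at PMA 3 days and 14 of 16 at PMA 8 days, and lower in 0, with medians of 1.63 and 2.44. Over all genes 10.4% were higher at PMA 3 days and 9.83% at PMA 8 days, with medians of -0.12 and -0.07. Several of the listed targets had been seen to be high in these data when the list was written, so the counts are not independent evidence. MMP3, a matrix protease with a classic AP-1 element, was below the floor in undifferentiated cells and read 418 at PMA 3 days and 2221 at PMA 8 days, 5.32-fold higher at PMA 8 days than at PMA 3 days. CCND1, the cyclin D1 gene, read 307 in undifferentiated cells, 538 at PMA 3 days and 1908 at PMA 8 days, 3.55-fold higher at PMA 8 days than at PMA 3 days. MMP9 read 72969 at PMA 8 days and 66825.5 at PMA 3 days, and HMOX1 read 15509 at PMA 8 days and 18776.5 at PMA 3 days, both short of 2-fold between the PMA arrays.

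Genes described as EGR1 targets gave 3 higher and 1 lower of 9 at PMA 3 days, where 10.4% and 10.7% of all genes were. At PMA 8 days they gave 4 higher and 0 lower, where 9.83% and 8.49% of all genes were. NAB2 was among those higher at both times, and CD44, which is also on the list of AP-1 targets, at PMA 8 days. CD44 was named after its values were seen, and its 13 probe sets did not all go one way. ICAM1, an adhesion molecule, read 351 in undifferentiated cells, 1087 at PMA 3 days and 1283 at PMA 8 days. The growth factor gene PDGFA read 206, 563 and 804 on the same arrays. F3, the tissue factor gene that starts coagulation, read 1993, 764.5 and 1758, 2.61-fold lower at PMA 3 days than in undifferentiated cells, and 2.30-fold higher at PMA 8 days than at PMA 3 days.

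**Figure D4:**
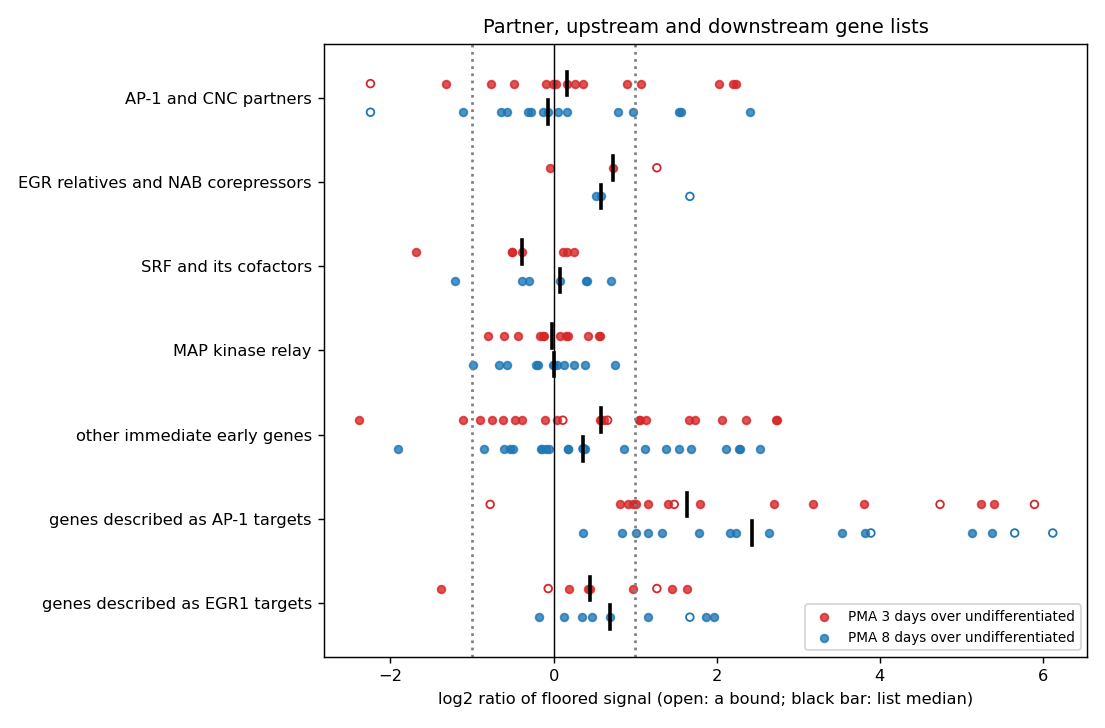
log2 ratios of the genes in 7 lists, with PMA 3 days over undifferentiated above PMA 8 days over undifferentiated; open circles are bounds, black bars list medians and dotted lines 2-fold. At the deposited scaling the kinases of the MAP kinase relay lie inside 2-fold, and the genes described as AP-1 targets reach furthest to the right.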

How the data were processed

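Total RNA, 200 ng in each case, of 3 THP-1 cultures was biotin-labelled and measured on 1 one-colour array each. The intensity values were made by the authors with MAS5 and deposited on a linear scale, per the submitters' processing notes; no version or setting is given in the sources used here. The trimmed mean (2% off each end) was about 1000 on every array, a scaling read from the values. Of 54613 non-control probe sets, 41091 had 1 gene in the platform table, 1801 several and 11721 none; symbols were updated by Entrez ID through the RefSeq table of GRCh38.p14, where 41037 matched. The brightest probe set stood for its gene. Signals were raised to a floor of 149.8, and a gene entered a comparison if above it on either array. Calls were made at 2-fold, with no test, since each group had 1 array; the number of arrays limits the precision. Members and lists were chosen with earlier results of these data known. List genes were named by size, up to 4 per list and comparison, if measured on both arrays with all probe sets going one way. NFE2, NFE2L2, NAB1, NAB2, SRF, CD44 and COL1A1 fall outside this rule and were named after their values were seen. The markers LYZ, SPI1, FCGR1A, CD79A, EPCAM and PECAM1 fall outside it too. Steps were tested on simulated data with changes of 3-fold or more in genes well above the floor. Recovery of smaller changes, or of changes near the floor, was not covered. Alternatives changed the floor, probe set, scaling or threshold. Promoters are from RefSeq. Software: numpy 2.4.6, pandas 2.3.3 and matplotlib 3.10.9 under Python 3.11.15.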

Additional observations from a re-analysis of the deposited data

How the results depend on the processing

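With 1 array per condition no replicate could be left out, and no paired analysis was possible because no group had a second sample. The count of members past 2-fold at PMA 3 days over undifferentiated, 2 in the values above, was 1 with the second brightest probe set (5 genes, FOS not among them), 1 under poly-A control scaling, 4 at a 1.5-fold threshold (with JUN higher and EGR1 lower) and 1 at 3-fold. The count for PMA 8 days over undifferentiated, 1 above, became 2 with FOSL1 added under a floor at the 40th percentile, a pseudocount of 50 without a floor, quantile normalization, centring, poly-A control scaling or a 1.5-fold threshold. The count for PMA 8 days over PMA 3 days, 0 above, became 1, again FOSL1, under the same settings except centring. MAFF was past the threshold at both PMA times in every setting run. The median log2 ratio of the members was lowest at PMA 3 days under poly-A control scaling (0.23) and at PMA 8 days with the second brightest probe set (0.20), both over undifferentiated, and reached 0.70 and 0.64 with the median over probe sets; between the PMA arrays it ran from -0.11 to 0.16. The restriction to genes above the floor on all 3 arrays, chosen after seeing the data, left the counts at 2, 1 and 0. Signals near the floor limit FOSL1, FOSB and the undifferentiated signal of MAFF.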
